A study of Mus musculus with 18 samples.

Results

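The effect of AQ that skeletal muscle of mice on normal chow and on a high-fat diet (HFD) had in common was measured here, gene by gene. AQ is a drug that was offered in the drinking water; the sources used here give neither its full name nor its dose. The rule took the main effect of AQ with diet as a factor, on log2(CPM + 1), in 12 of the 18 libraries of the series. Wild-type mice had been kept for 10 weeks on chow (group WT_NC), on chow with AQ (WT_NC_AQ), on HFD (WT_HFD) or on HFD with AQ (WT_HFD_AQ), with 3 libraries in each group. The other 6 libraries came from mice with a Nurr1 transgene (Nurr1-mTg) and their wild-type transgenic controls, both on HFD without AQ, and are used only for values set side by side. Which muscle was taken, the strain, age and sex of the mice, and the promoter of the transgene were not stated in the sources used here. The labels number the libraries as biological replicates.

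Nurr1 (gene Nr4a2) is an orphan nuclear receptor of the NR4A family, and it binds DNA as a monomer at an extended half-site. Muscle takes up fatty acids, oxidizes them in mitochondria and stores the excess as triglyceride in lipid droplets, whose surface carries perilipin coat proteins. Glucocorticoid hormones act on muscle through the glucocorticoid receptor, which switches on genes of protein breakdown, fuel choice and feedback on the receptor itself.

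Of 12558 genes in the table, 12364 had at least 1 CPM in at least 3 of the 12 libraries and were tested with limma in a fit of diet plus AQ. CPM stands for the authors' scaled read counts, whose columns do not sum to the same total. The recovered depth was 10404895 to 16082994 reads per library, and 3 reads then corresponded to 0.191 to 0.277 CPM (counting error only). Muscle markers were high in every library, with Acta1, the skeletal actin, at 26100 to 38500 CPM and Ckm, the muscle creatine kinase, at 19100 to 26700 CPM.

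Only 3 genes passed an adjusted p of 0.05 for AQ over both diets, which is 0.0243% of the genes tested. The lipid droplet coat gene Plin4 fell (1 gene lower, 0.00809%), and Fam53b and Bcl6b rose (2 genes higher, 0.0162%). Plin4 and Fam53b moved alike in both diets by the rule used (same sign, the smaller change at least 0.5 times the larger, and an unadjusted p for the difference between diets of at least 0.05), which is 0.0162% of the genes tested. A call over both diets itself favours the same direction in each diet, so moving alike is a description. At an unadjusted p under 0.05 there were 1323 genes, or 10.7%, with 681 higher and 642 lower under AQ. On the same recovered reads edgeR's quasi-likelihood test called 3 genes and DESeq2 called 126, 75 of them higher.

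The promoters of Plin4 and Fam53b are printed because these genes moved alike by the rule used. That of Rxrg is printed because it holds the motif by which NR4A receptors bind. Each runs from 250 bases before to 50 bases after an annotated start, 5′ to 3′ on the gene's strand, from RefSeq on GRCm38.p6. Capitals mark the NR4A monomer element, AAAGGTCA, where it occurs on either strand.
Plin4 promoter, chr17:56109733-56110032, minus strand: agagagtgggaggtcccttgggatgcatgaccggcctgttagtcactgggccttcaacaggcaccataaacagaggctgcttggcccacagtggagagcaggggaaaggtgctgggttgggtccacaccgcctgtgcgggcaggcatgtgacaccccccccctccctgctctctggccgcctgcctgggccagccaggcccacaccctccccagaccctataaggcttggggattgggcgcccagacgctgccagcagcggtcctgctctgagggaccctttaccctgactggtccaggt
Fam53b promoter, the first of 3 listed, chr7:132813799-132814098, minus strand: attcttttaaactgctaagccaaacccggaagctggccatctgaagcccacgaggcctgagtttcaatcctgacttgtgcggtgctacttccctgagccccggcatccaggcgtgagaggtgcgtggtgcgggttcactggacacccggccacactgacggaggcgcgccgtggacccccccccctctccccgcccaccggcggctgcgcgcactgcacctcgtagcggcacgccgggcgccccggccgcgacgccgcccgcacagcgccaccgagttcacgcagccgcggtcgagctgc
Rxrg promoter, the second of 2 listed, chr1:167618015-167618314, plus strand: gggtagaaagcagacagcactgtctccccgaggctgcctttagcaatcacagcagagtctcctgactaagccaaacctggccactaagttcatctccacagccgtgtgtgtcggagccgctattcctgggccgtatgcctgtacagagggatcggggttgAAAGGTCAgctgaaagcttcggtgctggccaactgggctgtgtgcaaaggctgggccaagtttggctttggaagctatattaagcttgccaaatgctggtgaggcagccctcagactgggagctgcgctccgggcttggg
Neither the Plin4 window nor the 3 Fam53b windows held the element, and the Rxrg window held it 90 bases before the start. Rxrg was not called (log2 fold change -0.17, adjusted limma p 0.362), and of the 4 Pfkfb1 windows the third also held the element (Pfkfb1 at -0.22, adjusted limma p 0.567). The element was in 1.51% of all 32851 promoters of that length, in 0.971% of those of genes in the table, and in none of the 31 promoters found for 21 of the 30 genes with the smallest p described further on. CACGTG, the E-box bound by clock and other factors, was in 6 of those 31 promoters, in 7.15% of all promoters and in 9.94% of those of genes in the table. Its carriers were Abca1, Il6ra, Nrarp, Rara and Rasgrf2. TTATGTAA, the D-box, was in none of the 31, in 0.938% of all promoters and in 0.51% of those of genes in the table. Both strands were searched, the motifs do not overlap one another, and a match in a window is only a description.

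Plin4 (chr17:56100591-56109803, minus strand, GRCm38) encodes perilipin 4, a coat protein of lipid droplets that is abundant in fat and muscle. On chow it lay at 383, 376 and 360 CPM without AQ and at 225, 212 and 187 CPM with AQ. On HFD it lay at 501, 525 and 383 CPM without AQ and at 310, 266 and 236 CPM with AQ. The treated and untreated libraries did not overlap in either diet. Plin4 fell by 0.82 ± 0.09 (SE) on the log2 scale over both diets, with a limma adjusted p of 0.00187. The decrease was -0.84 on chow and -0.79 on HFD, and their difference of 0.06 had a 95% interval of -0.32 to 0.43. Plin4 passed the threshold under each of the 27 alternatives tried, at -0.88 to -0.78. The untreated HFD controls of the transgene lay at 319, 288 and 304 CPM, under every WT_HFD library and within or just above the range of the AQ libraries on HFD.

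Fam53b (chr7:132712082-132813886, minus strand) encodes a nuclear protein that acts in Wnt and β-catenin signalling. Its levels on chow were 41.9, 32.4 and 35.9 CPM without AQ and 51.7, 55.9 and 58.1 CPM with AQ. On HFD they were 36.0, 29.1 and 39.0 CPM without AQ and 48.6, 62.4 and 50.01 CPM with AQ. Every treated library was above every untreated one. Fam53b rose by 0.60 ± 0.09 (SE) on the log2 scale, with a limma adjusted p of 0.0316, and the difference between diets was 0.04 (95% interval -0.34 to 0.42). It passed the threshold in 12 of 27 alternatives, and its adjusted p reached 0.169 when replicate numbers were blocked within each diet. The transgene controls, which had no AQ, lay at 56.9, 65.5 and 57.7 CPM, above all 6 untreated libraries of the comparison.

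Bcl6b (chr11:70224128-70229798, minus strand) encodes a zinc finger repressor related to Bcl6 that is expressed in endothelium and lymphocytes. On chow its levels were 5.31, 5.08 and 8.22 CPM without AQ and 20.2, 17.5 and 18.1 CPM with AQ. On HFD they were 6.57, 5.40 and 9.36 CPM without AQ and 13.1, 11.3 and 11.6 CPM with AQ. The groups did not overlap in either diet, and the separation was wider on chow. Bcl6b rose by 1.09 ± 0.16 (SE) on the log2 scale over both diets, with a limma adjusted p of 0.0316. Its increase was 1.47 on chow and 0.71 on HFD, and the difference of -0.76 (95% interval -1.30 to -0.21) had an unadjusted limma p of 0.00996 and an adjusted p of 0.214. For that reason it did not count as moving alike. Bcl6b passed in 14 of 27 alternatives, and the transgene controls lay at 13.6, 20.1 and 11.3 CPM. The AQ contrast on HFD used WT_HFD and not these controls, and what separates the untreated HFD groups cannot be told apart from the labels.

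**Figure D1:**
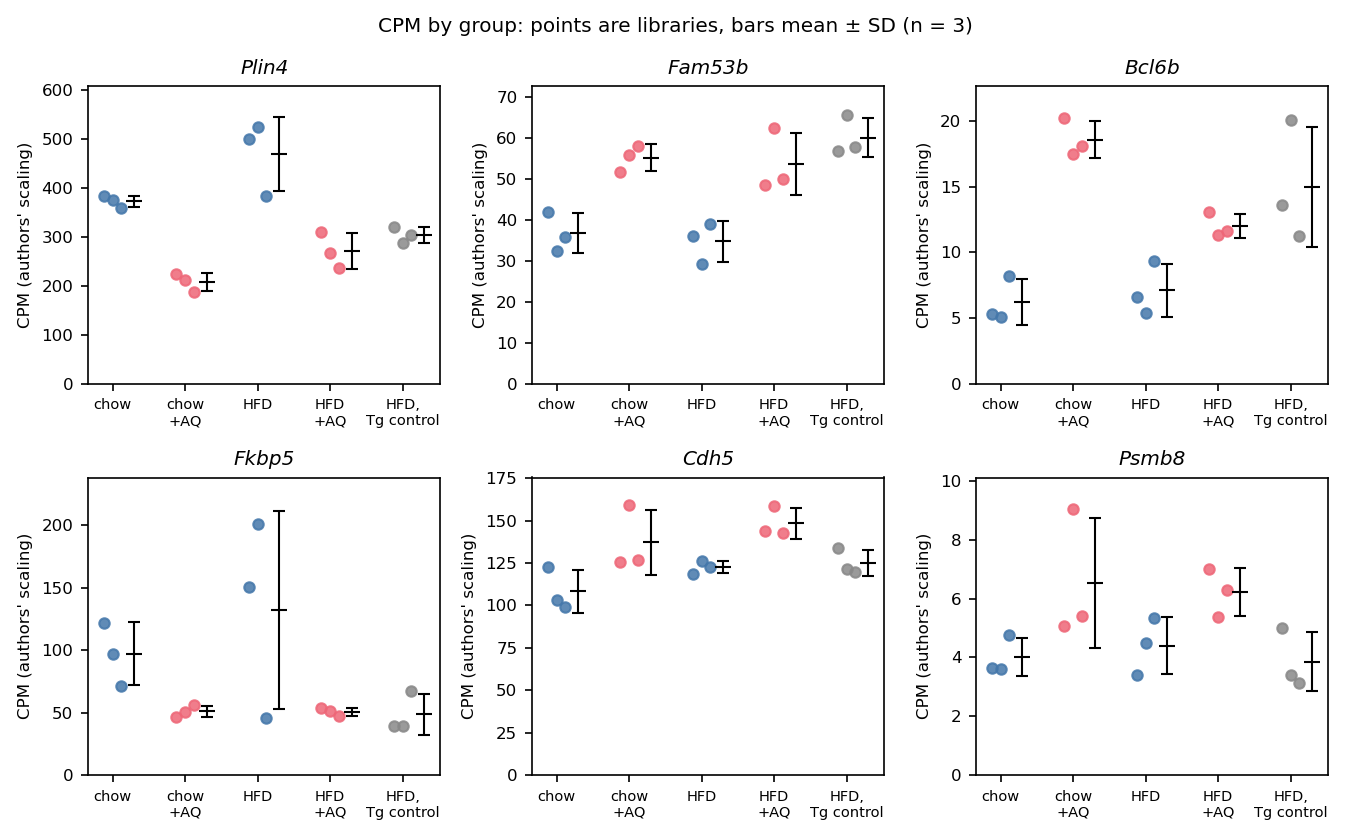
CPM (authors' scaling) of 6 genes on the y axis, by group on the x axis: points are the 3 libraries of a group, bars the mean ± SD, blue untreated, red with AQ, grey the untreated HFD controls of the transgene. For Plin4, Fam53b and Bcl6b no red point overlaps the blue points of its diet, and for Fkbp5 the third WT_HFD library (45.7 CPM) lies with the AQ libraries.

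The Nr4a family itself was examined because the series is about Nurr1. None of its 3 members passed. Nr4a2 lay at 1.66, 1.11 and 1.54 CPM on chow and at 4.79, 1.26 and 2.05 CPM with AQ, and on HFD at 1.59, 1.49 and 1.07 CPM and at 0.828, 1.26 and 2.03 CPM with AQ. The treated and untreated libraries overlapped in both diets. Its log2 difference was 0.23, with an exact two-sided permutation p of 0.415 over the 400 arrangements within diets (smallest p possible 0.005), adjusted to 0.622 over the 3 genes. Nr4a1 had a difference of 0.07 (exact permutation p = 0.790) and Nr4a3 of -0.35 (exact permutation p = 0.395, adjusted 0.622). The log2 fold changes were above 0 on chow for all 3 genes and below 0 on HFD for all 3.

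Across the 12364 genes the log2 fold change of AQ on chow and that on HFD, which share no library, had a Pearson correlation of -0.01 and a Spearman correlation of -0.03. Genes are not independent replicates, so no p is given. The signs matched for 48.4% of the genes, and the median size of the pooled change was 0.08 on the log2 scale. Chow alone gave 77 called genes (0.623%) and HFD alone gave 5 (0.0404%), namely Plin4, Cd163, Ccl6, 1500017E21Rik and Fn1. Plin4 was called with a decrease in each diet. Fn1, fibronectin, was called in opposite directions, at 0.45 on chow and -0.53 on HFD. The AQ effect differed between diets for 62 genes (0.501%) at an adjusted limma p of 0.05, and 54 of these had a lower value on HFD than on chow.

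The chow and HFD differences come from different libraries, but both use 1 estimate of each gene's spread, so a gene of low spread has a smaller p in both diets and in either direction. Of the 77 genes called on chow, 25 (32.5%) had the same direction on HFD, against 48.4% of all genes. These were 18 of the 65 called higher (27.7%) and 7 of the 12 called lower (58.3%). At an unadjusted p under 0.05 on HFD, 9 (11.7%) had the same direction, against 5.62% of all genes, and 17 (22.1%) had the opposite direction, against 5.80%. The 9 included Plin4, Bcl6b, Zfp395, Lmod2, Myod1, Fam107a and Rara. The 17 included Fn1, the collagen crosslinking enzyme gene Loxl1, the fatty acid desaturase gene Scd1 and the macrophage growth factor receptor gene Csf1r. Scd1 was 0.94 on chow and -0.74 on HFD.

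**Figure D2:**
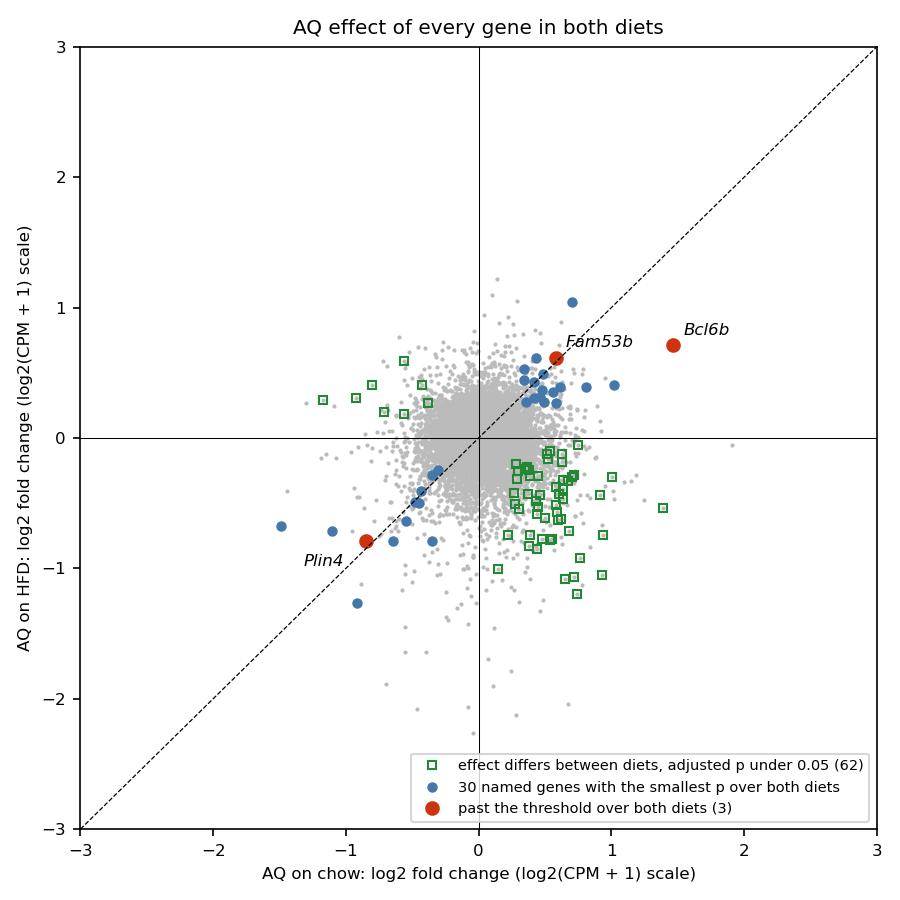
Log2 fold change of AQ on chow (x axis) against that on HFD (y axis), on the log2(CPM + 1) scale, for 12364 genes in grey. Red marks the 3 genes called over both diets, blue the 30 named genes with the smallest p, green squares the 62 genes whose effect differed between diets, and the dashed line equal change; most green squares lie at the lower right, higher on chow and lower on HFD.

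A count without a model was made on the same 12 libraries, so it is not a separate check. In 177 genes (1.43%) the 3 AQ libraries lay on the same side of the 3 untreated ones in both diets, with 105 higher (0.849%) and 72 lower (0.582%). In 241 genes (1.95%) they were apart in both diets but in opposite directions. Taken singly, the groups did not overlap for 19.9% of genes on chow and 16.3% on HFD.

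The 30 named genes with the smallest p for the pooled effect were chosen after their values were seen, and beyond the 3 called genes their adjusted limma p ran from 0.0874 to 0.143. They are given as levels, and no increase or decrease is claimed for them. Of the 30, 18 were above 0 and 12 below. AQ and untreated libraries did not overlap in either diet for 23, against 1.43% of all genes. The choice by smallest p favours such separation, so it is only a description. For the difference between diets 4 had an unadjusted limma p under 0.05, against 13.2% of all genes tested. In the transgene contrast on HFD none of the 30 was called, against 0.599% of all genes, and 10 had an unadjusted limma p under 0.05, against 8.94%. That fit takes 1 estimate of each gene's spread from all 18 libraries, which include the 12 by which the 30 were chosen. A gene of low spread thus has a smaller p in both, so the count of 10 cannot serve as a separate check. The sign was that seen under AQ for 8 of the 30, and the share over all genes was not counted.

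Receptors and surface proteins come first. Il6ra, the receptor subunit for interleukin 6, lay at 7.21, 7.93 and 8.15 CPM on chow against 5.29, 5.58 and 5.42 CPM with AQ, and at 8.71, 9.88 and 7.42 CPM on HFD against 5.86, 6.37 and 5.27 CPM with AQ. All AQ libraries were under all untreated ones, with a log2 fold change of -0.47 ± 0.08 (SE) and an adjusted limma p of 0.0874. Cd163, the haemoglobin scavenger receptor of resident macrophages, lay at 17.7, 17.9 and 18.7 CPM on chow against 13.5, 14.99 and 13.5 CPM with AQ, and at 26.4, 29.1 and 20.2 CPM on HFD against 14.1, 14.2 and 13.7 CPM with AQ. The groups were apart in both diets, and the gap was wider on HFD (-0.79) than on chow (-0.35). Fgfr3, a fibroblast growth factor receptor, was at -0.72 over both diets. Acvr1, a BMP type I receptor, was at 0.43. Abca1, which exports cholesterol from cells, lay at 55.4, 50.6 and 47.4 CPM on chow against 41.6, 32.3 and 35.5 CPM with AQ, and at 65.8, 46.1 and 44.7 CPM on HFD against 31.1, 35.9 and 42.6 CPM with AQ. Its groups did not overlap in either diet, although the lowest untreated and highest treated libraries on HFD were close. The transgene controls, without AQ, lay at 4.56, 3.18 and 5.15 CPM for Il6ra, under every AQ library on HFD. For Cd163 they lay at 11.9, 7.22 and 15.2 CPM, under every WT_HFD library, and for Abca1 at 45.1, 40.1 and 32.4 CPM.

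Lmod2, Abra and Myod1 are the muscle genes described next. Lmod2, leiomodin 2, which elongates thin filaments, lay at 250, 335 and 231 CPM on chow against 136, 144 and 97.2 CPM with AQ, and at 302, 606 and 320 CPM on HFD against 238, 251 and 222 CPM with AQ. No treated library reached an untreated one of its diet, and the second WT_HFD library stood far above the rest. Abra, an actin-binding protein of the sarcomere, lay at 303, 352 and 200 CPM on chow against 147, 185 and 114.6 CPM with AQ, and at 336, 668 and 201 CPM on HFD against 164, 151 and 131 CPM with AQ. Its log2 fold change was -1.09 ± 0.23 (SE), and the same WT_HFD library was highest. Myod1, the transcription factor that sets muscle identity, lay at 15.8, 16.3 and 13.3 CPM on chow against 33.3, 27.7 and 34.3 CPM with AQ, and at 11.2, 17.1 and 15.9 CPM on HFD against 19.4, 22.2 and 17.5 CPM with AQ. The gap was 1.02 on chow and 0.41 on HFD on the log2 scale, with no overlap in either diet. In the untreated transgene controls Lmod2 lay at 169, 172 and 195 CPM, under every AQ library on HFD. Abra lay there at 212, 180 and 191 CPM, above every AQ library on HFD, and Myod1 at 16.8, 23.7 and 16.2 CPM.

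Other genes of the 30 act in transcription or signalling. Kdm6b, a histone H3 lysine demethylase, was at 0.32 ± 0.06 (SE), with 43.0, 44.0 and 45.8 CPM on chow against 60.9, 54.2 and 56.2 CPM with AQ, and 49.7, 41.7 and 49.7 CPM on HFD against 56.6, 57.2 and 57.6 CPM with AQ. No overlap was seen in either diet, and the untreated transgene controls lay at 54.9, 57.0 and 58.9 CPM, above every WT_HFD library. Rara, the retinoic acid receptor α, was at 0.42, Sox4, a transcription factor of progenitor cells, at 0.49, and Nrarp, a Notch-induced feedback inhibitor, at 0.43. Zfp395 was at 0.50, and Uba7, which activates the ubiquitin-like protein Isg15, at 0.52. Other genes above 0 were Apol10b, Zswim1, Slc25a29, Fryl, Wdr6 and Rasgrf2, at 0.36 to 0.87. The remaining genes below 0 were Synj2, Yipf7, Fam107a, Prickle3 and Rnf144b, at -1.08 to -0.27.

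Fixed gene lists were read by counts and medians, beside all genes tested, of which 6018 were above 0 and 6346 below, with a median of -0.004. Plin4 was the sole member of any of the 35 lists to pass the threshold. The lists and their members were chosen with earlier results of these data known.

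All 16 glucocorticoid-responsive genes were below 0 under AQ, with a median log2 fold change of -0.33 over both diets, -0.33 on chow and -0.41 on HFD. None was called, and 10 of 16 had an unadjusted limma p under 0.05, against 5.19% of all genes in that direction. Fkbp5, which encodes a chaperone that feeds back on the glucocorticoid receptor, lay at 122, 97.0 and 71.7 CPM on chow against 46.4, 50.8 and 55.7 CPM with AQ, and at 150, 201 and 45.7 CPM on HFD against 53.4, 51.6 and 47.3 CPM with AQ. The groups were apart on chow, while on HFD the third WT_HFD library lay under all 3 AQ libraries. Its log2 fold change was -1.004 ± 0.26 (SE), with an adjusted limma p of 0.180.

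Glul, glutamine synthetase, repeated that layout. It lay at 278, 385 and 395 CPM on chow against 237, 176 and 195 CPM with AQ, and at 468, 506 and 213 CPM on HFD against 242, 253 and 220 CPM with AQ. Zbtb16, a zinc finger transcription factor, lay at 101, 171 and 111 CPM on chow against 71.2, 51.9 and 69.9 CPM with AQ, and at 206, 186 and 75.4 CPM on HFD against 91.2, 90.7 and 78.3 CPM with AQ. In both genes the third WT_HFD library again lay under all AQ libraries of its diet. Tsc22d3, the glucocorticoid-induced leucine zipper, was at -0.38 ± 0.10 (SE), and the FoxO factor gene Foxo1 at -0.66 ± 0.25 (SE). Fkbp5 and Tsc22d3 were named after their values were seen.

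The count of 16 of 16 held in each of the 27 alternatives, with medians of -0.47 to -0.30, the lowest with a clock score as covariate. Without the third WT_HFD library the median was -0.39 and limma called Fkbp5, Zbtb16 and Glul, and DESeq2 on all 12 libraries called these and Tsc22d3. The transgene controls, without AQ, lay at 39.0, 39.4 and 67.3 CPM for Fkbp5 and at 105, 113 and 311 CPM for Glul. In each gene 2 of these 3 values were under every AQ library on HFD. The clock score, log2 Arntl minus log2 Dbp, ran from -4.37 to -0.65 in WT_NC and from -1.62 to -0.24 in WT_NC_AQ, and from -3.93 to -3.43 in WT_HFD and from -4.65 to -3.95 in WT_HFD_AQ. The sources used here do not give the time of day of sampling, and its part in these values was not tested.

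Of 15 interferon-induced genes tested, 14 were above 0 under AQ, with a median of 0.32 (0.23 on chow and 0.32 on HFD). None passed the threshold, and 8 had an unadjusted limma p under 0.05, against 5.51% of all genes in that direction. Psmb8, a subunit of the immunoproteasome, lay at 3.65, 3.62 and 4.75 CPM on chow against 5.07, 9.06 and 5.42 CPM with AQ, and at 3.39, 4.48 and 5.35 CPM on HFD against 7.01, 5.39 and 6.29 CPM with AQ. Its groups did not overlap, and the closest values on HFD were 5.35 and 5.39 CPM. Bst2, tetherin, which holds virions at the cell surface, was at 0.34 ± 0.10 (SE). Psmb8, Irf7 and Usp18 were the 3 members apart in both diets, all higher under AQ, against 0.849% of all genes in that direction. The member below 0 was Ifi27, at -0.14. The second WT_NC_AQ library had the highest summed level of the list in its group, 151 CPM against 105 and 112 CPM. MHC class II genes, which present antigen, were above 0 in 7 of 7, with a median of 0.65 on chow and -0.07 on HFD.

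Of 12 endothelial markers 11 were above 0, with a median of 0.20 (0.20 on chow and 0.11 on HFD), and 6 had an unadjusted limma p under 0.05, against 5.51% of all genes in that direction. Cdh5, which encodes the adhesion protein of endothelial junctions, lay at 122, 103 and 99.0 CPM on chow against 126, 159 and 127 CPM with AQ, and at 119, 126 and 123 CPM on HFD against 144, 159 and 142 CPM with AQ. No AQ library overlapped its controls, at a log2 fold change of 0.30 ± 0.07 (SE) and an adjusted limma p of 0.147. Erg, an endothelial transcription factor, was at 0.09 on chow and 0.56 on HFD, and Cldn5, a tight junction protein, at 0.93 on chow and 0.05 on HFD. The summed level of the 12 markers was 456 to 578 CPM in WT_NC and 563 to 675 CPM in WT_NC_AQ, and 560 to 609 CPM in WT_HFD and 617 to 673 CPM in WT_HFD_AQ. In whole muscle more or fewer cells of a type and more or less RNA per cell cannot be told apart. Bcl6b is named above as an endothelial gene, and the part of these markers in its values was not tested. Of 15 angiogenesis genes tested 10 were above 0 and 5 below, with a median of 0.14 (0.20 on chow and 0.04 on HFD). None was called. The 2 with the smallest p were Aplnr, the apelin receptor, at 0.62 ± 0.15 (SE), and Dll4, a Notch ligand of tip cells, at 0.47 ± 0.14 (SE). Dll4 was at 0.23 on chow and 0.71 on HFD.

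**Figure D3:**
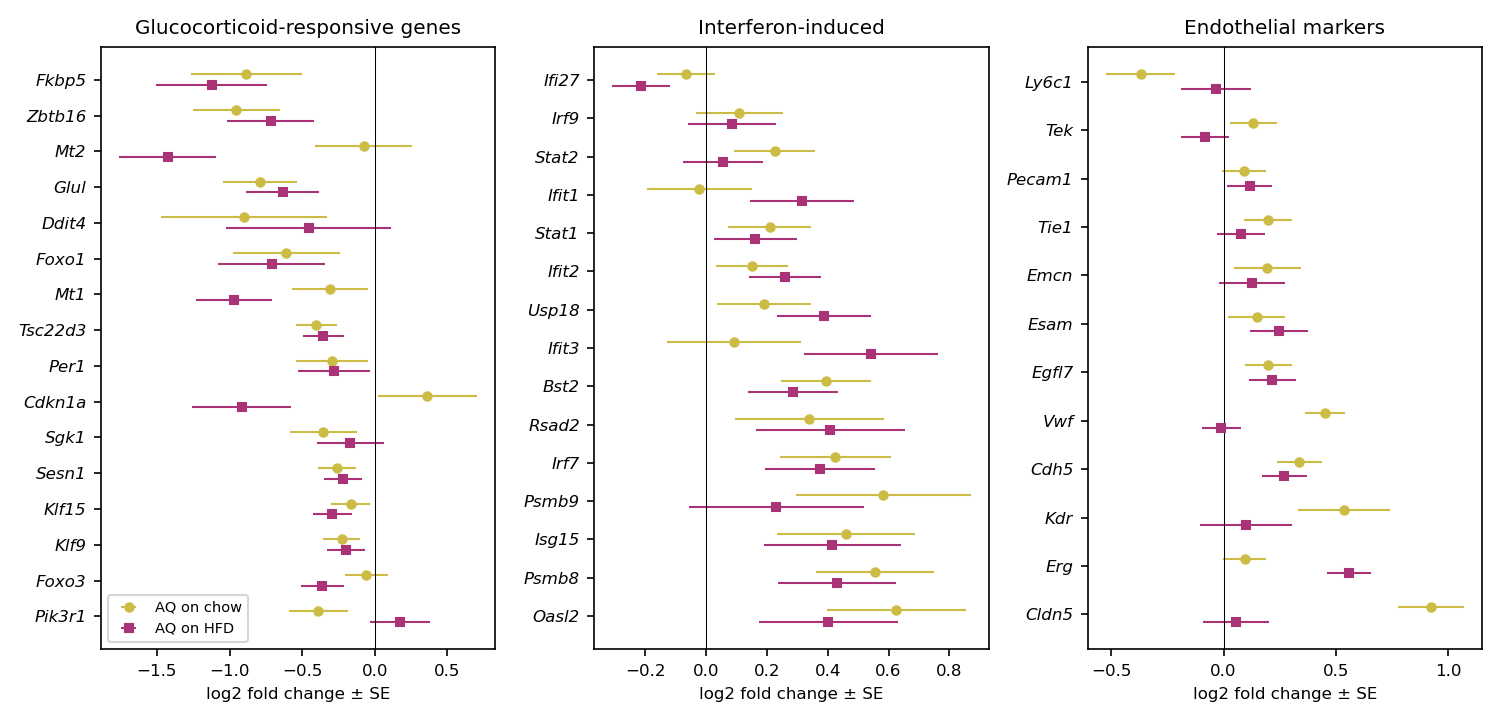
Log2 fold change of AQ (x axis, ± SE, log2(CPM + 1) scale) for each member of 3 gene lists (y axis), on chow in yellow and on HFD in purple. Of the glucocorticoid-responsive genes 14 of 16 lie on the same side of 0 in both diets, of the interferon-induced genes 14 of 15 and of the endothelial markers 10 of 12.

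Lipid genes gave a mixed picture outside Plin4. Of 19 genes for lipid droplet coats and lipases 13 were below 0, with a median of -0.06. Mgll, the monoglyceride lipase, was at -0.32 ± 0.10 (SE), and Cidec, which fuses droplets, at 0.07 on chow and -1.70 on HFD. The paralogues of Plin4 were at -0.17 (Plin1), -0.06 (Plin2), 0.005 (Plin3) and -0.38 (Plin5), and none passed the threshold. The genes that mark lipid overload were below 0 in 9 of 11, with a median of -0.29 (-0.19 on chow and -0.55 on HFD). Among these Ucp3, the muscle uncoupling protein, was at -0.80 ± 0.24 (SE), and Pdk4, the kinase that restrains pyruvate oxidation, at -1.002 ± 0.31 (SE). Pdk4 was -0.56 on chow and -1.45 on HFD. The list for fatty acid uptake and oxidation had a median of -0.20 on chow and 0.17 on HFD, and 6 of 26 had the same sign in both.

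Of 20 cholesterol synthesis and SREBP genes 15 were above 0, with a median of 0.04, and 5 had an unadjusted limma p under 0.05, against 5.51% of all genes in that direction, among them Sqle, Srebf2, Insig1 and Cyp51. The sign was the same in both diets for 10 of the 20 (50%), against 48.4% of all genes. Sqle, squalene epoxidase, was at 0.68 on chow and 0.14 on HFD, and Srebf2, the master regulator of the pathway, at 0.43 on chow and 0.10 on HFD. Fads1, a fatty acid desaturase of the fatty acid synthesis list, was at 0.69 on chow and 0.25 on HFD. Of 28 lysosome and autophagy genes 15 were above 0 and 13 below, with a median of 0.01. Heat shock genes were below 0 in 13 of 15 and immediate early genes in 15 of 18. Without the second WT_HFD library these medians went from -0.18 to -0.11 and from -0.24 to -0.12.

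Lists that mark other cell types mostly differed in sign between the diets. The median of 16 fibroblast and matrix markers was 0.36 on chow and -0.63 on HFD, with the same sign in both diets for 2 of 16. Leukocyte markers (11 tested of 16) were at 0.36 and -0.35, with 1 of 11 alike in sign, and adipocyte markers at 0.09 and -0.51. Adipoq, the fat-cell hormone adiponectin, ran from 6.05 to 31.9 CPM over the 12 libraries, and no tested marker was at 0 in any library. Myh7, the slow myosin heavy chain, was at 0.28 ± 0.16 (SE) over both diets, and Casq2, also of the slow fibre list, at -0.45 ± 0.21 (SE). The 9 slow fibre genes had a median of -0.06 on chow and 0.14 on HFD, with the same sign in both for 4 of 9. The fast fibre genes had a median of -0.09 over both diets.

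**Figure D4:**
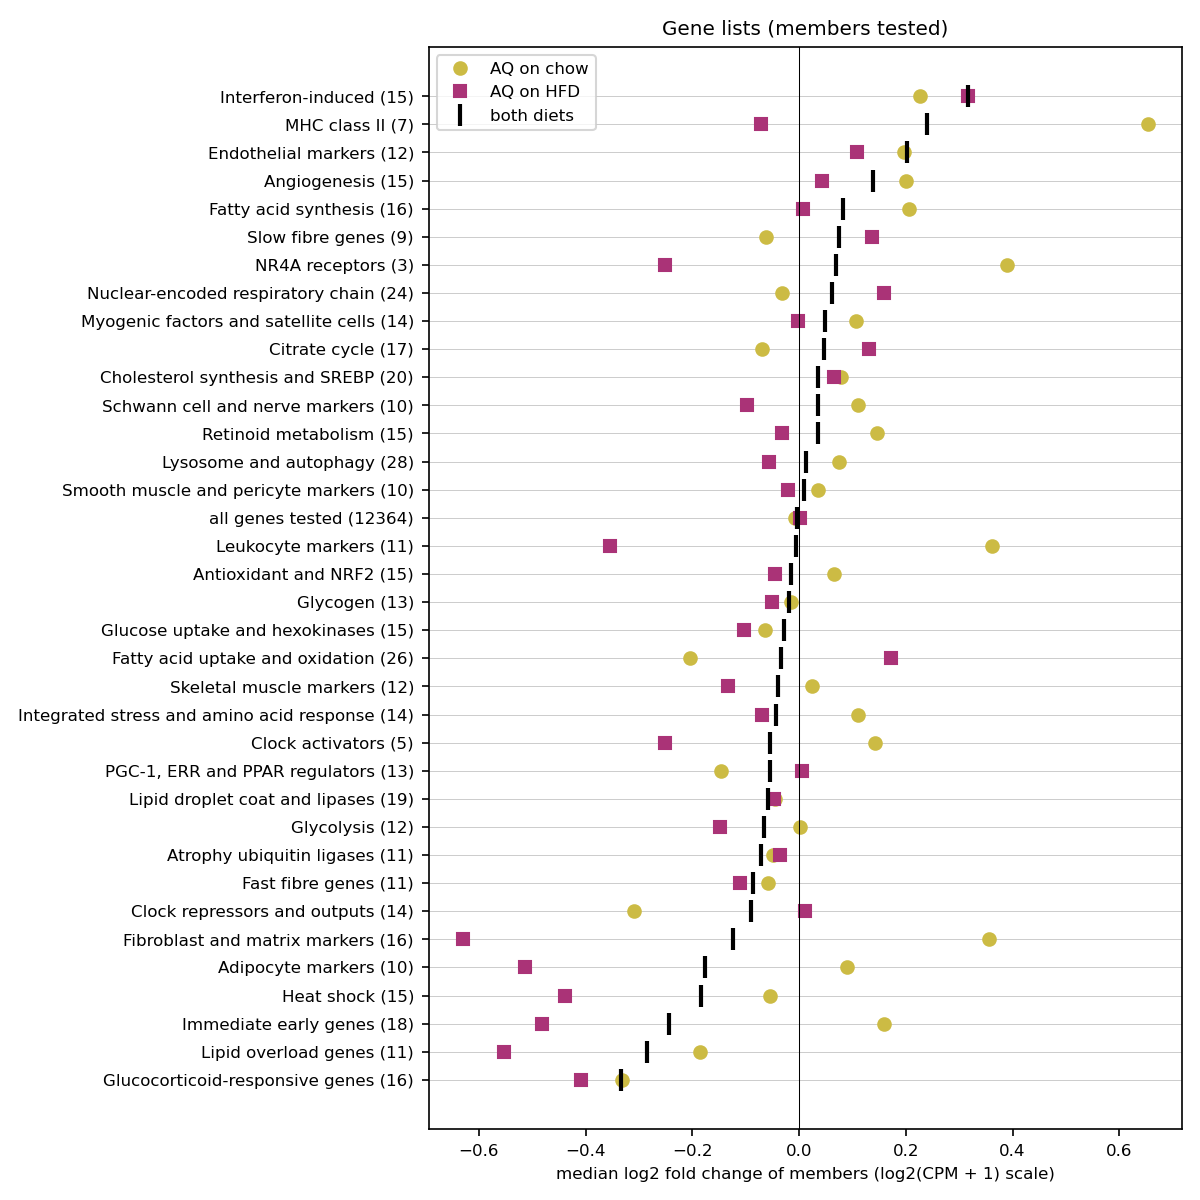
Median log2 fold change of AQ (x axis, log2(CPM + 1) scale) of each gene list (y axis, with the number of members tested): circles chow, squares HFD, bars both diets. The glucocorticoid-responsive, interferon-induced and endothelial lists have both symbols on the same side of 0, as do others such as the lipid overload, cholesterol synthesis and angiogenesis lists. Fibroblast, leukocyte and MHC class II lists are among those with symbols on opposite sides.

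The number of called genes depended on single libraries. Without the third WT_HFD library limma called 93 genes over both diets, 51 higher and 42 lower, among them Plin4, Fam53b and Bcl6b. Of the 93, 77 moved alike, but a call over both diets favours that in advance, so the count is only a description. Without the first WT_NC library it called 12. Without any other single library it called 1 or 2, and Plin4 was among them each time.

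**Figure D5:**
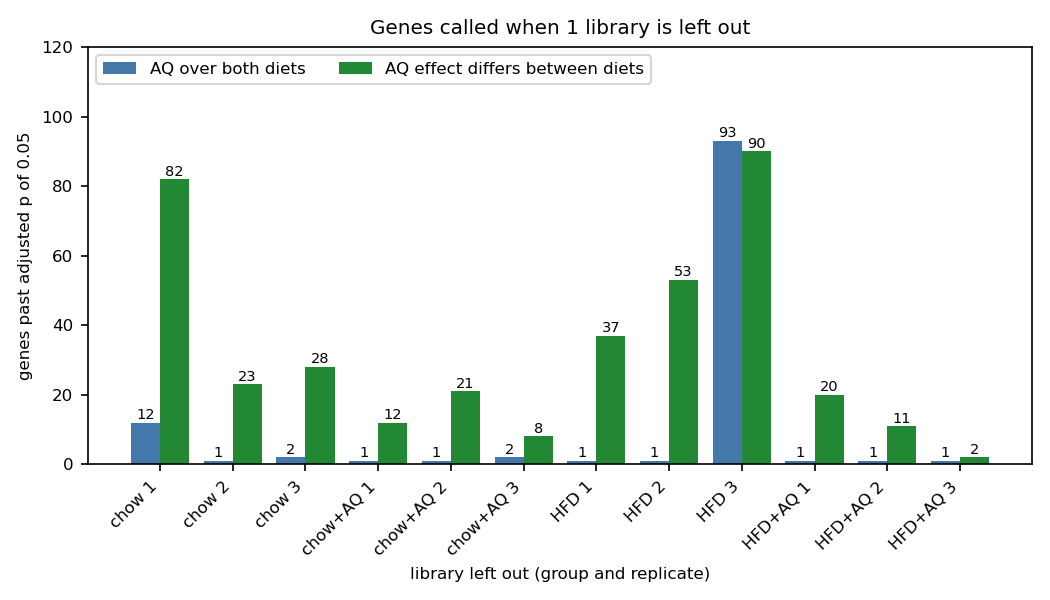
Number of genes past an adjusted limma p of 0.05 (y axis, bars from 0) when the library on the x axis is left out, for AQ over both diets in blue and for the difference between diets in green. With all 12 libraries the counts are 3 and 62; leaving out the third WT_HFD library gives 93 and 90.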

How the data were processed

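Total RNA of mouse skeletal muscle was extracted with TRIzol and sequenced (50 bases, single end, per the labels' protocols). The authors deposited a table named as CPM, a scaled signal whose 12 columns used here sum to between 929993 and 1035816. TopHat2 2.0.12, edgeR and the builds GRCm38 and mm10 are named in the submitters' processing notes, and the sources used here do not give the counter, annotation, strand setting or gene filter. Divided by 1 factor per library, every deposited value (100% within 1e-06) was whole, so reads were recovered for edgeR 4.0.16 and DESeq2 1.42.0.

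Genes that reached 1 CPM in 3 or more of the 12 libraries entered limma 3.58.1 in R 4.3.3 (eBayes with a trend) on log2(CPM + 1), which understates changes of low genes. The pooled fit was diet plus AQ, with 9 residual degrees of freedom. Separate diets and their difference came from 4 group means, with 8. The transgene contrast came from 6 group means on all 18 libraries. Tests were two-sided, with Benjamini-Hochberg adjustment over all genes, and the functions were tested on simulated data. Replicates of a group differed by more than counting noise (chi-square per degree of freedom at least 4.26). P-values set a difference against the spread between these samples. In the pooled fit that spread also holds any difference of the AQ effect between diets.

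Named genes were those that moved alike, up to 15 each way, with at least 2 CPM in the higher group; called list members, or else up to 2 with the smallest p; the Nr4a genes; and, among genes that passed for the difference between diets, the 6 with the largest one. The members and lists were chosen with earlier results of these data known, and the 30 genes with the smallest p and the count of genes without overlap were added after seeing the data, as were further genes named to fill a count or as paralogues. Symbols were matched to GRCm38.p6 for 12489 genes, 465 through older symbols. A few genes that are counted in the totals are not reported here by name.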

Additional observations from a re-analysis of the deposited data

Results flagged for a closer look

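The AQ effect differed between the diets for 62 genes, and the 6 with the largest difference among these (HFD minus chow, log2; predicted gene models left out) are given here. Tmem45b differed by -1.982 (adjusted limma p 0.0308) and C4b, a complement component, by -1.944 (0.0175). Npas2, a partner of the clock factor Arntl, differed by -1.926 (0.0468), at 1.82, 0.696 and 0.257 CPM on chow against 3.17, 3.56 and 4.69 CPM with AQ. On HFD Npas2 lay at 1.31, 0.249 and 0.668 CPM without AQ and at 0.127, 0.280 and 0.0924 CPM with AQ, and these AQ values lie near the level of 3 reads, 0.191 to 0.277 CPM. Col5a3, a fibrillar collagen, differed by -1.781 (0.0334), Mest, an imprinted gene linked to fat cell size, by -1.733 (0.0468) and Fbn1, fibrillin 1, by -1.682 (0.0308). Each had a log2 fold change above 0 on chow and below 0 on HFD, so none belongs to the shared effect. Under the alternatives tried C4b passed for the difference in 22 of 26, Tmem45b in 18 of 25, Fbn1 in 18 of 26, Col5a3 in 13 of 26, Npas2 in 6 of 25 and Mest in 5 of 26. The 16 fibroblast and matrix markers had medians of 0.36 on chow and -0.63 on HFD, and their part in these differences was not tested.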

How the results depend on the processing

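The count of 3 genes for AQ over both diets became 1 without a trend in eBayes, 5 with 4 group means, 28 with 6 group means on 18 libraries and 126 with DESeq2, and ran from 1 to 93 when single libraries were left out. The 2 genes that moved alike became 1 with columns rescaled to the same total, 1 without a trend, 15 with 6 group means and 99 with DESeq2, and ran from 1 to 77 with single libraries left out. The rule of libraries that do not overlap gave 177. The 62 genes that differed between diets became 18 with columns rescaled, 37 without a trend, 20 with the GC trend of each library removed, 35 with the clock score and 219 with DESeq2, and ran from 2 to 90 with single libraries left out. The 1 called list member became 2 with 4 group means, 6 with 6 group means and 11 with DESeq2, and ran from 1 to 8 with single libraries left out. Nr4a1 (0.07) ran from -0.08498 to 0.1895 with single libraries left out, and changed sign without WT_NC replicate 1 (-0.00815) and without WT_NC_AQ replicate 1 (-0.08498). The causes of these shifts were not tested. Of the values of single named genes under the alternatives, 2384 kept their direction and side of the threshold, 81 fell below it, 88 passed it and 0 changed direction, apart from Nr4a1. The median of all genes was -0.00362, and 0.0179 with columns rescaled to the same total.

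Replicate numbers are shared between groups, but same-numbered libraries correlated at -0.214 to 0.312, so they were not taken as pairs. A replicate block within each diet gave 1 gene over both diets, 1 that moved alike and 10 that differed between diets, and a replicate block across both diets gave 4, 3 and 45.

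With 3 libraries a group, and a group such as WT_HFD in which the third library lies apart for several genes, a gene that misses the threshold is not shown to be unchanged. Genes near 3 reads, 0.191 to 0.277 CPM, cannot be ordered.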

Other observations

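Ppara, the fatty acid-sensing nuclear receptor, had a log2 fold change of -0.66 ± 0.21 (SE) over both diets (-0.94 on chow and -0.39 on HFD), with an adjusted limma p of 0.286. Of 13 genes for PGC-1, ERR and PPAR regulators 11 were below 0, and 7 to 11 under the alternatives. Their median was -0.15 on chow and 0.005 on HFD. Nrip1, a co-repressor of nuclear receptors, was at -0.91 on chow and -0.07 on HFD. Nuclear-encoded respiratory chain genes were above 0 in 20 of 24, at a median of -0.03 on chow and 0.16 on HFD. Pax7, the satellite cell transcription factor, was at 0.40 ± 0.13 (SE), at 2.30, 2.23 and 3.47 CPM on chow against 3.81, 3.83 and 3.15 CPM with AQ, and at 1.73, 1.74 and 3.01 CPM on HFD against 2.80, 3.08 and 4.07 CPM with AQ. The groups overlapped in both diets. Across genes the pooled log2 fold change had a Pearson r of 0.18 with GC content, at 0.34 on chow and -0.07 on HFD, and the 3 called genes were the same after each library's GC trend was removed.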
